A study of Mus musculus with 12 samples.

Results

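Fatty acid and cholesterol synthesis were followed in mouse melanoma tumors through 9 genes chosen by symbol: Acaca, Fasn, Scd1, Srebf2, Sqle, Lss, Dhcr7, Fdps and Idi1. The platform annotation named a probe for 7 of the 9, and these 7 all passed the filter on dim probes, among 7894 genes tested. Fasn and Idi1 had no named probe and were not analysed here. Acaca encodes acetyl-CoA carboxylase, which makes malonyl-CoA in the committed step of fatty acid synthesis, and Scd1 encodes a desaturase that turns saturated into monounsaturated fatty acids. Srebf2 encodes SREBP-2, the membrane-bound transcription factor that is cut and sent to the nucleus when sterols in the endoplasmic reticulum are low, where it switches on the genes of cholesterol synthesis and uptake. The other 4 measured genes encode enzymes of that pathway: Fdps makes farnesyl diphosphate, Sqle oxidises squalene, Lss closes the ring to lanosterol and Dhcr7 catalyses the last step to cholesterol. Proliferating tumor cells and leukocytes both use these pathways for membranes.

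The tumors were grown from B16 cells, a pigmented melanoma line, which were placed under the skin of the right flank of C57BL6 mice at 25000 cells a mouse and taken at 100 to 400 mm3. Cells of the kind named F0 or of the kind named F4 were used, and the labels describe F4 tumors as having acquired resistance to earlier checkpoint inhibitor therapy and as being under such treatment. The labels conflict on the F0 tumors: a sample tag gives them no checkpoint inhibitor at any time, while the treatment protocol gives F0 and F4 mice alike 3 injections of checkpoint inhibitors, which it does not name, together with Fvax, a vaccine of B16 cells that express Flt3 ligand. Any F4 to F0 comparison is thus between kinds of tumor, and whether their current treatment differed is unclear. Tumors of 3 mice made a pool, and flow sorting for tdTomato, a red fluorescent protein, split each pool: tdTomato-positive cells are here the tumor fraction and tdTomato-negative cells the microenvironment fraction. There were 2 pools of F0 tumors (B2 and B3) and 4 of F4 tumors (A to D), each with an array per fraction, so that same-lettered arrays shared their mice. F0 and F4 are each 1 cell line, so the pools repeat the tumors and not the making of the line.

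Values are log2 signals of single-colour bead arrays after background correction and quantile normalization over the 12 arrays. A probe counts as detected on an array when its detection p was below 0.01. On the tumor arrays 8995 to 10308 probes were detected and on the microenvironment arrays 6808 to 9387. A marker index, the mean log2 signal of melanocyte genes minus that of pan-leukocyte, macrophage and T cell genes, lay between 2.46 and 4.53 on 5 tumor arrays and between -3.37 and -1.88 on 4 microenvironment arrays. The other 3 arrays stood between these ranges: tumor_F4 A at -0.73, microenvironment_F4 D at 0.30 and microenvironment_F0 B3 at 0.79. Melanocyte genes were thus measured in the tdTomato-negative fraction too, where 6 to 11 of the 12 measured markers were detected per array. In bulk RNA, fewer cells of a type and less RNA per cell cannot be told apart. Each fraction had a chip of its own, so that chip and fraction cannot be told apart, and neither can position on the chip and line.

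**Figure D1:**
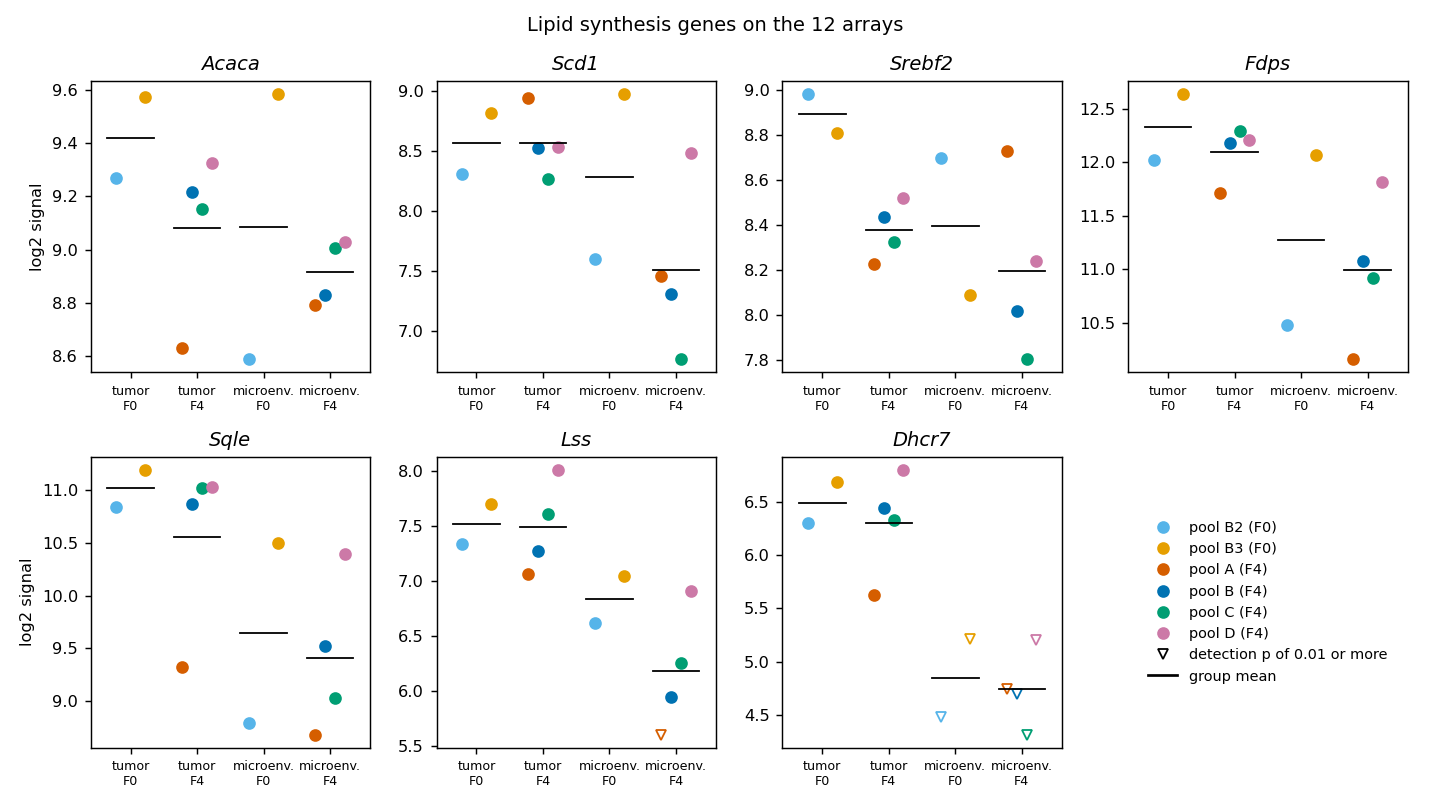
Log2 signal of the 7 measured genes (vertical axes, with a scale of their own) on the 12 arrays by group. Points are arrays, coloured by the pool of mice, open triangles mark arrays on which the probe was not detected, and bars are group means; Dhcr7 was detected on 6 of 6 tumor arrays and on 0 of 6 microenvironment arrays.

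The first comparison asked whether the fractions of a tumor differed in these genes. In F4 tumors the late cholesterol enzymes Lss and Dhcr7 were higher in the tumor than in the microenvironment fraction, where Dhcr7 was not detected. With the pool of mice in the model Fdps, Sqle and Scd1 were higher as well. Acaca and Srebf2 did not pass in either model. No gene of the 7 was called lower in the tumor fraction. Of all genes tested in F4, 13.3% were called higher and 11.2% lower in the tumor fraction by limma at an adjusted p below 0.05, and 18.8% were higher with the pool as a block. The count depended on the scaling: with each array set to a common median in place of quantile normalization, the median difference of all genes was 1.22 and that of the 7 was 2.22, all 7 were called, and 5351 genes were called higher against 399 lower, where the main model had 1053 and 886.

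Lss gave 7.06, 7.27, 7.61 and 8.01 in the F4 tumor fractions of pools A to D, and 5.61, 5.95, 6.26 and 6.91 in their microenvironment fractions. Every tumor array lay above every microenvironment array, a separation seen in this direction for 14.1% of all genes. The difference was 1.31 ± 0.30 (SE), or 2.48-fold, with an adjusted p of 0.0202 in limma. Within each pool the tumor fraction was higher, by 1.10 to 1.45 in F4 and by 0.65 and 0.71 in F0. This was so in 6 of 6 pools, and no share of all genes stands beside that count. Lss was not detected on the microenvironment array of F4 pool A. The call was lost when tumor_F4 B, C or D or microenvironment_F4 B or C was left out, with adjusted p values of 0.0526 to 0.0695 and differences of 1.11 to 1.37. When each of the 12 arrays was left out in turn, the difference ranged from 1.11 to 1.57.

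Dhcr7 gave 5.63, 6.45, 6.33 and 6.81 in the F4 tumor fractions A to D and 4.74, 4.69, 4.31 and 5.20 in the microenvironment fractions. It was detected on all 4 tumor arrays and on no microenvironment array, so the microenvironment values are a bound and not a level. On that bound the tumor signal was at least 1.34-fold higher, the brighter mean being set against the higher, on each dim array, of the gene's own signal and the lowest detected signal. The fitted difference was 1.57 ± 0.29 with an adjusted p of 0.0134. Dhcr7 entered the tested genes through its tumor arrays alone, which fixes part of that difference. Without the filter it was called as well, but that run keeps the same Dhcr7 values and so is no separate support. Leaving out tumor_F4 B, C or D raised the adjusted p to 0.0546 to 0.0556, with differences of 1.34 to 1.49. In F0 the tumor arrays gave 6.30 and 6.69 against 4.48 and 5.21, at least 1.31-fold higher, with a fitted difference of 1.65 ± 0.42 that did not pass (adjusted p = 0.0721). With the pool as a block it passed, at 0.0350, where 1.65% of all genes were called higher.

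Fdps and Sqle act upstream of Lss in the pathway. Fdps gave 11.71, 12.18, 12.29 and 12.21 in the F4 tumor fractions against 10.17, 11.07, 10.92 and 11.82 in the microenvironment, a difference of 1.10 ± 0.39 (2.15-fold). The groups overlapped because microenvironment_F4 D lay above tumor_F4 A, but each tumor fraction exceeded the other fraction of its own pool, by 0.39 to 1.55. The adjusted p was 0.0578, and 0.0221 with the pool as a block. Sqle gave 9.32, 10.87, 11.02 and 11.04 in the F4 tumor fractions and 8.68, 9.53, 9.03 and 10.40 in the microenvironment, a difference of 1.15 ± 0.50 (2.22-fold). Here tumor_F4 A stood apart from the other tumor arrays and within the microenvironment range. The adjusted p was 0.0992, and 0.0309 with the pool as a block, and without tumor_F4 A the difference was 1.56 (adjusted p = 0.0263). A second, dimmer Sqle probe differed by 1.20 ± 0.81 in F4 and did not pass (adjusted p = 0.254).

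Of the fatty acid genes, Scd1 gave 8.94, 8.53, 8.27 and 8.53 in the F4 tumor fractions and 7.46, 7.31, 6.77 and 8.49 in the microenvironment. Unlike the cholesterol enzymes, its highest F4 tumor value was on tumor_F4 A, the array with the lowest marker index of the tumor fraction. The difference was 1.06 ± 0.38 (2.09-fold, adjusted p = 0.0601, and 0.0321 with the pool as a block), and pool D contributed 0.05, where each other pool gave 1.22 or more. Acaca gave 8.63, 9.22, 9.15 and 9.33 against 8.79, 8.83, 9.01 and 9.03, a difference of 0.17 with a 95% interval of -0.37 to 0.70. For the regulator Srebf2 the values were 8.23, 8.44, 8.33 and 8.52 against 8.73, 8.02, 7.81 and 8.24, a difference of 0.18 with an interval of -0.32 to 0.68. In pool A both genes were lower in the tumor fraction, by 0.16 for Acaca and by 0.50 for Srebf2, and in the other F4 pools both were higher.

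**Figure D2:**
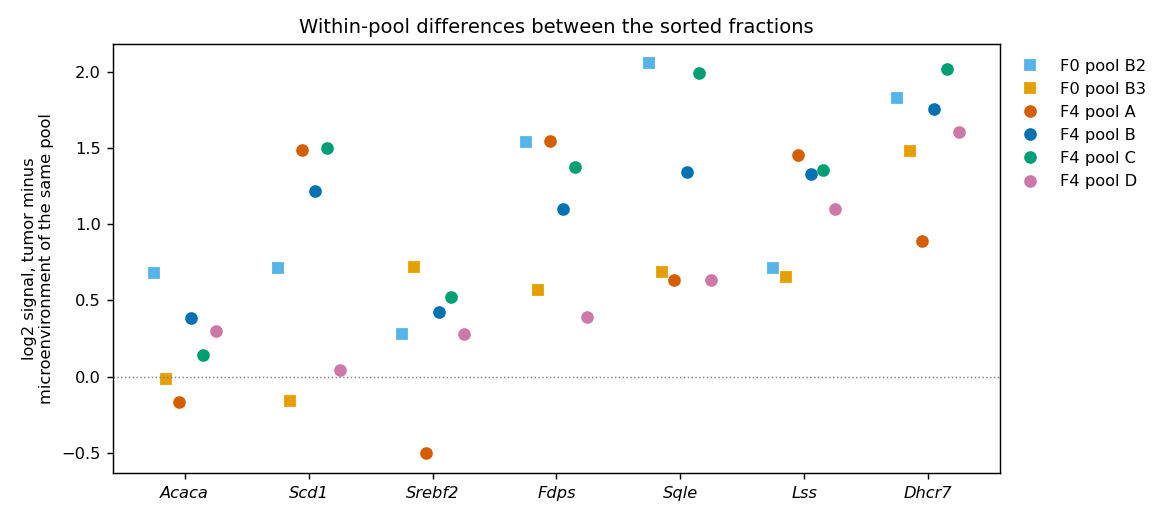
Log2 signal of the tumor fraction minus that of the microenvironment fraction of the same pool, for each measured gene (horizontal axis). Each point is a pool, squares for F0 and circles for F4. Fdps, Sqle, Lss and Dhcr7 lay above 0 in 6 of 6 pools, Scd1 and Srebf2 in 5 and Acaca in 4. No share of all genes stands beside these counts. The Dhcr7 points rest on microenvironment values that were not detected. On tumor_F4 A (5.63) and tumor_F0 B2 (6.30) Dhcr7 lay below the lowest signal detected on the microenvironment array of the same pool (6.39 and 6.37).

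In the F0 tumors, with 2 pools, none of the 7 genes passed between fractions, where 0.266% of all genes were called higher and 0.646% lower. All 7 differences were above 0, as were 60.2% of those of all genes, with a median of 0.68 against 0.19. Sqle differed by 1.37 ± 0.71 (0.52 without microenvironment_F0 B2, 2.23 without B3), Fdps by 1.05 ± 0.56 (0.26 and 1.84), Lss by 0.68 ± 0.43, Srebf2 by 0.50 ± 0.32, Acaca by 0.33 ± 0.34 and Scd1 by 0.28 ± 0.54. Srebf2, Sqle, Lss and Dhcr7 had both tumor arrays above both microenvironment arrays, as did 38.5% of all genes. The F0 microenvironment arrays were far apart: B2 and B3 gave 8.79 and 10.50 for Sqle, 10.48 and 12.07 for Fdps, 7.60 and 8.98 for Scd1 and 8.59 and 9.58 for Acaca. For Srebf2 the order was turned, at 8.70 for B2 and 8.09 for B3.

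Several of the genes moved with the marker index across arrays. On the microenvironment arrays of highest index, microenvironment_F4 D and microenvironment_F0 B3, Fdps, Sqle, Lss, Scd1 and Acaca were each above all 4 others. For Acaca the margin was narrow, at 9.03 on microenvironment_F4 D against 9.01 on microenvironment_F4 C. Srebf2 did not have this order, and Dhcr7 was not detected on any microenvironment array. On tumor_F4 A, the tumor array with the lowest index, Fdps, Sqle, Lss, Dhcr7, Acaca and Srebf2 had their lowest tumor values and Scd1 its highest. With these 3 arrays left out, a choice made with earlier results of these data in view, 5 of the 7 genes were called higher in the F4 tumor fraction and 4 in the F0 tumor fraction, where 35.4% and 19.6% of all genes were. Leaving out these 3 arrays kept only 1 F0 microenvironment array, so the spread within that group was not measured. The F0 count and share of that run are therefore not read as a result. With the index as a covariate none of the 7 was called between the fractions of F4 or of F0 tumors. Of all 7894 genes only 1 (0.0127%) was then called higher and 4 lower in each. The index itself differed between the fractions, so that index and fraction are hard to separate in this model. The differences in F4 were 0.64 for Dhcr7 (adjusted p = 0.433) and 0.59 for Lss (0.777). Melanocyte markers were above 0 in the same F4 contrast for 12 of 12 measured genes (median 1.43), and their summed signal ran from 55367 to 75552 on F4 tumor and from 18284 to 70323 on F4 microenvironment arrays. Leukocyte markers were below 0 for 9 of 9 (median -2.37), with summed signals of 3700 to 30824 and 25701 to 48653. The part of either cell type's RNA in the lipid gene differences was not tested.

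**Figure D3:**
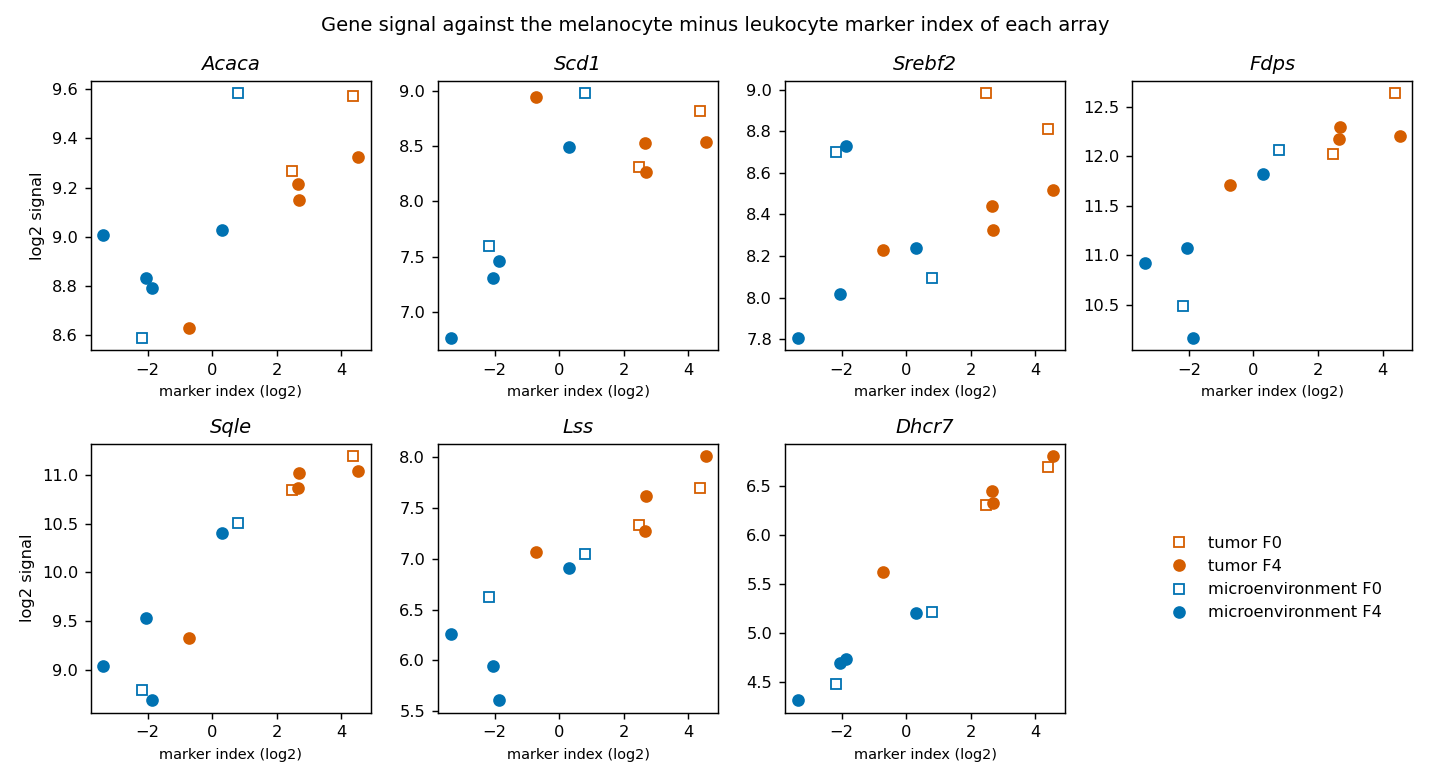
Log2 signal of each measured gene against the marker index of the array (melanocyte minus leukocyte markers, log2), for the tumor (orange) and microenvironment (blue) fractions, with open squares for F0 and filled circles for F4. Sqle, Lss and Fdps are lowest on microenvironment arrays of low index and Dhcr7 was detected on tumor arrays alone, while Srebf2 reaches 8.70 on microenvironment_F0 B2 and 8.73 on microenvironment_F4 A.

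Other lipid-making cells of the skin were looked for by their markers. Of 10 adipocyte markers 2 were measured, Lep and Lpl, with differences between the F4 fractions of -1.31 and -1.13 and summed signals of 375 to 3072 on F4 microenvironment and 115 to 993 on F4 tumor arrays. Lep was detected on only 1 F4 tumor array, so its difference rests mostly on undetected tumor values. Of 8 sebocyte markers none was measured, and 2 of 8 keratinocyte markers were, of which at most 2 were detected on a microenvironment array and at most 1 on a tumor array. The part of such cells in the microenvironment values was not tested.

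The rest of the pathways was read from lists of enzymes, regulators and transport genes, of which 39 of 65 genes other than the 9 chosen were measured. In F4, 2 of these 39 were called higher in the tumor fraction and 1 lower, smaller shares than the 13.3% and 11.2% of all genes, and the median difference was 0.62 against 0.20 for all genes. Mvd, the mevalonate diphosphate decarboxylase which makes isopentenyl diphosphate, stood at 7.57 ± 0.26 against 6.71 ± 0.48 (SD, n = 4 each), 0.86 ± 0.27 (SE) higher (adjusted p = 0.0422, and 0.0576 with the pool as a block). Mcat, a mitochondrial malonyl transferase, was at least 1.13-fold higher (adjusted p = 0.0178), since it was detected on 3 of 4 tumor arrays and on no microenvironment array. Like Dhcr7 it entered the tested genes through its tumor arrays alone, which fixes part of its difference. Lbr, a nuclear envelope protein that also reduces a sterol double bond, was lower in the tumor fraction, at 9.78 ± 0.18 against 10.71 ± 0.43, a difference of -0.93 ± 0.31 (adjusted p = 0.0479, and 0.0510 with the block), which turned to 0.51 under median scaling. The calls on Mvd and Lbr were each lost on leaving out 8 of the 12 arrays in turn, and that on Mcat on leaving out 4.

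Of the 14 cholesterol enzymes measured, 3 were called higher and 1 lower in the F4 tumor fraction, and of the 17 fatty acid enzymes 1 was higher, beside the same 13.3% and 11.2% of all genes. These counts include the chosen genes. Cyp51, which acts on lanosterol just after Lss, differed by 1.32 in F4 and Insig1, which retains SREBP in the endoplasmic reticulum and is itself a target of it, by 1.07. Scd2, the other main desaturase gene of mouse tissues, differed by 1.57, and Acly, which makes cytosolic acetyl-CoA, by 0.41. Adjusted p values of these 4 were 0.0967 to 0.166. With the pool as a block Cyp51 (0.0106) and Scd2 (0.0424) passed and Insig1 and Acly did not. Hmgcs1, which makes HMG-CoA at the head of the pathway, differed by 0.13 and the SREBP escort Scap by 0.05, while Srebf1, which encodes SREBP-1, stood at 5.33 ± 0.50 in the tumor fraction and was not detected in the microenvironment. The fitted difference of Srebf1, 0.81 (adjusted p = 0.0755, and 0.0462 with the block), rests on those undetected values. Its tumor mean lay below the lowest signal detected on F4 microenvironment arrays A, C and D (6.39, 6.15 and 5.66) and close to that on B (5.30). Over these arrays together it is not bounded as higher, and no fold is given.

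**Figure D4:**
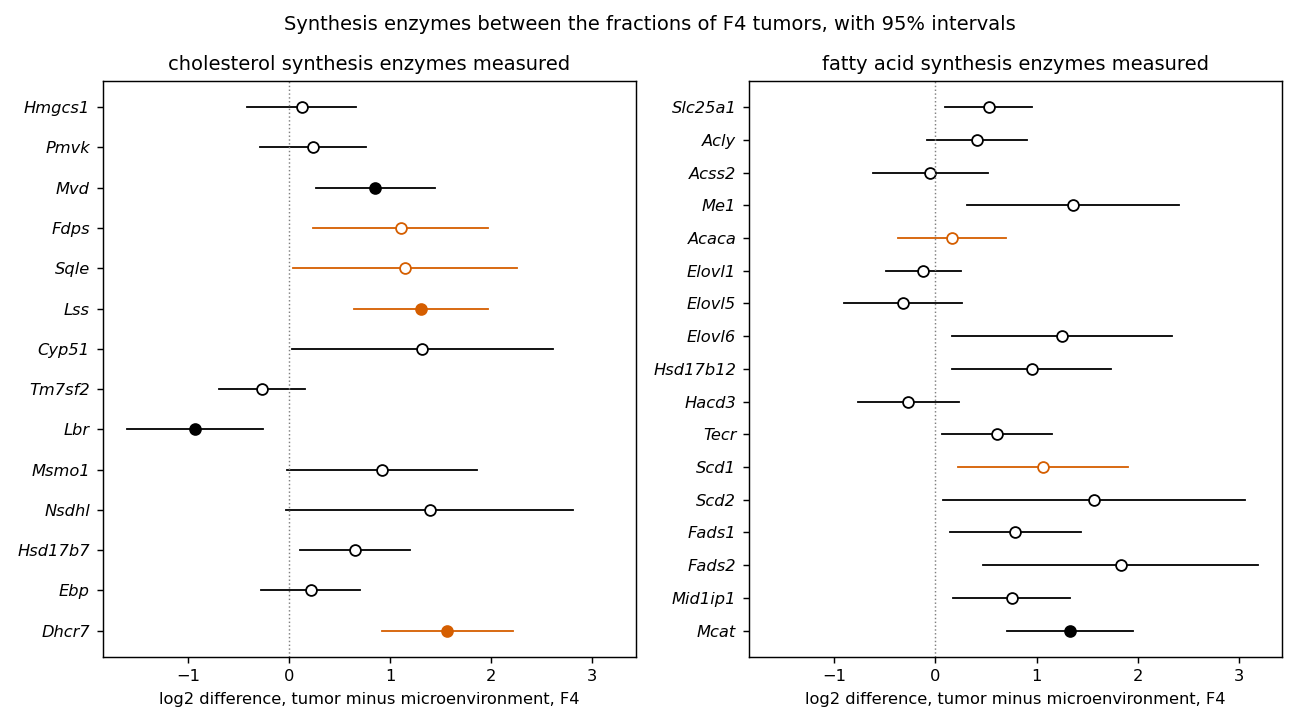
Log2 difference between the tumor and microenvironment fractions of F4 tumors (horizontal axis) for the measured enzymes of cholesterol synthesis, from first to last step, and of fatty acid synthesis. Points are limma estimates with 95% intervals, filled where the adjusted p was below 0.05, and the chosen genes are in orange; Lss and Dhcr7 were called among the cholesterol enzymes with Mvd and, on the other side, Lbr, whose sign turned under median scaling.

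The second comparison asked whether F4 tumors differed from F0 tumors in these genes. In the tumor fraction none of the 7 passed, where 0.0127% of all genes were called higher and 0.0760% lower, and 2.09% had an unadjusted p below 0.05. With the brightest probe of each gene, the largest shift was in Srebf2, at 8.98 and 8.81 in F0 and 8.23, 8.44, 8.33 and 8.52 in F4. All 4 F4 arrays lay below both F0 arrays, as they did for 8.30% of all genes. The difference was -0.52 ± 0.28 (SE), with a 95% interval of -1.14 to 0.10, an unadjusted p of 0.0909 and an adjusted p of 0.9998 in limma. It ran from -0.60 to -0.43 over the omission of each array and from -0.83 to -0.47 over the other alternatives. The -0.83 came with median scaling, where the median difference of all genes was -0.26.

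The enzymes of both pathways were measured in the same arrays, and their control by Srebf2 was not tested. Sqle differed by -0.46 ± 0.62, but by -0.045 without tumor_F4 A, whose value of 9.32 lay far under the 10.87 to 11.04 of the other F4 arrays and the 10.85 and 11.19 of F0. Its second, dimmer probe differed by -1.03 ± 0.99, more than Srebf2 did, and did not pass (adjusted p = 0.9998). Fdps differed by -0.23 ± 0.48, Dhcr7 by -0.20 ± 0.36 and Lss by -0.03 ± 0.37, each with F4 and F0 arrays overlapping. Scd1 stood at 8.57 ± 0.28 (SD, n = 4) in F4 and 8.57 ± 0.36 (SD, n = 2) in F0, a difference of 0.00 with an interval of -1.03 to 1.04. Acaca differed by -0.34 ± 0.30, with its lowest value again on tumor_F4 A. The intervals of the 7 genes reached from -1.81, for Sqle, to 1.04, for Scd1. Counted by sign, 6 of the 7 were below 0, against 53.2% of all genes, with a median of -0.23 against -0.02. Without tumor_F0 B3 this became 4 of 7 with a median of -0.0017, without tumor_F0 B2 7 of 7 with -0.43, and without tumor_F4 A 5 of 7 with -0.10.

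In the microenvironment fraction none of the 7 passed either, and 0 of all 7894 genes were called by limma, of which 193 (2.44%) had an unadjusted p below 0.05. Lss was 6.62 and 7.05 in F0 and 5.61 to 6.91 in F4, a difference of -0.65 ± 0.37. Scd1 was 7.60 and 8.98 in F0 and 6.77 to 8.49 in F4, a difference of -0.78 ± 0.47 that was -0.094 without microenvironment_F0 B3 and -1.48 without B2. The F4 and F0 arrays of both overlapped. Fdps differed by -0.28 ± 0.48, Sqle by -0.24 ± 0.62, Srebf2 by -0.20 ± 0.28, Acaca by -0.17 ± 0.30 and Dhcr7, not detected in either group, by -0.11. All 7 were below 0, Dhcr7 on undetected values, against 53.9% of all genes, with a median of -0.24 against -0.03, but without microenvironment_F0 B3 the differences of Sqle (0.62), Fdps (0.51) and Acaca (0.33) lay above 0. Without microenvironment_F0 B2 that of Srebf2 was 0.11.

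**Figure D5:**
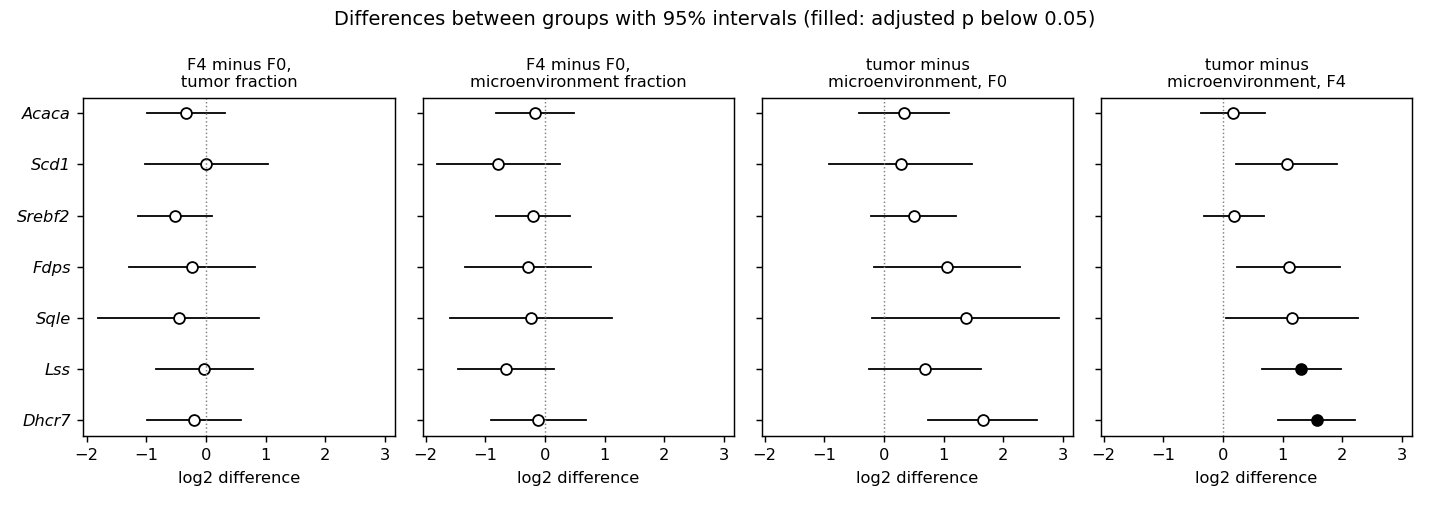
Log2 differences (horizontal axes) of the 7 measured genes in 4 comparisons, with 95% intervals from limma; filled points passed at an adjusted p below 0.05. Lss (1.31) and Dhcr7 (1.57) passed between the fractions of F4 tumors, and every interval for F4 minus F0 includes 0.

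The difference between the F4 shifts of the fractions was tested as an interaction, and no gene of the 7 and 0 of all 7894 genes passed, 97 of them (1.23%) having an unadjusted p below 0.05. It was highest for Scd1, at 0.79 ± 0.67, and lowest for Srebf2, at -0.32 ± 0.40. Without microenvironment_F0 B3 these were 0.098 and -0.016, and without B2 1.48 and -0.63. The other pathway genes gave no call between lines in either fraction. In the tumor fraction those with the smallest p were Hmgcs1 (-0.35), Mvd (-0.33), Acss2 (-0.32), Mbtps1 (-0.43), Nceh1 (0.56) and Cyp27a1 (0.82), beside Acaca and Srebf2. In the microenvironment they were Hsd17b7 (-0.35), Slc25a1 (-0.31), Srebf1 (-0.49, not detected there), Insig1 (-0.56), Cyp27a1 (0.76) and Lipa (0.33), beside Lss and Scd1, with adjusted p values of 0.9987 or more in both fractions.

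The order of the group means was the same for Sqle, Fdps and Lss: F0 tumor, F4 tumor, F0 microenvironment, F4 microenvironment. No difference between the F4 and F0 means of a fraction passed for any of the 7 genes, and Dhcr7, not detected in the microenvironment, was not ranked. By mean alone, Scd1 had its F4 microenvironment (7.51) below the other groups (8.29 to 8.57). Acaca and Srebf2 had their F0 tumor means (9.42 and 8.90) above the others (8.92 to 9.09 and 8.20 to 8.40). Single arrays overlapped: Scd1 gave 8.49 on microenvironment_F4 D and 7.60 on microenvironment_F0 B2. Acaca gave 9.58 on microenvironment_F0 B3, above both F0 tumor arrays (9.27 and 9.57). Genes outside the pathway lists with the most similar profile to the mean of the 7 over the 12 arrays were Sspn (Pearson r = 0.989), Lrp11, Dbi, Ephx1 and Coa8. By gene, the highest r was with Rad51c for Dhcr7 (0.993), Igsf11 for Sqle (0.985), Mettl9 for Fdps (0.983), Tsen15 for Scd1 (0.978), Mtmr10 for Lss (0.968), Catsperd for Srebf2 (0.957) and Rabgap1 for Acaca (0.952). These coefficients were picked as the highest among the genes tested, and the arrays share pools and fall into 2 fractions. Rad51c and Catsperd, like Dhcr7, were not detected on any microenvironment array, so their values there are not levels. Igsf11 and Lrp11 were each detected on 1 of 2 F0 and 1 of 4 F4 microenvironment arrays, and Mtmr10 on 1 of 2 and 2 of 4.

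Promoter sequence was read for the genes that were higher in the F4 tumor fraction and for their regulator. The RefSeq promoter table (GRCm38.p6) held windows of 250 bases before to 50 after a start for 4 of the 7 genes, Acaca, Srebf2, Lss and, with 3 starts, Dhcr7. The sterol regulatory element in the form TCACNCCAC, the NF-Y box CCAAT and the Sp1 box GGGCGG were searched on both strands, motifs through which SREBP and its partners bind. TCACNCCAC was found in 1.24% of all 32851 windows and in none of these 6, CCAAT in 37.4% of all and in 3 of the 6, and GGGCGG in 35.7% of all and in 4 of the 6. The bases before the start are shown, with matches to CCAAT or GGGCGG on either strand in capitals.
Lss, chr10:76531355-76531604, plus strand: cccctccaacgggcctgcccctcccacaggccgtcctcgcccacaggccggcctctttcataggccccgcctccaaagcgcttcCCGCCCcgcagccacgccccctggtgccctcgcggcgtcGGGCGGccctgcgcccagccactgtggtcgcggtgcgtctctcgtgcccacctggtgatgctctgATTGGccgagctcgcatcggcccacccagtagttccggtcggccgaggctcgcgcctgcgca
Dhcr7, first start, chr7:143822917-143823166, plus strand: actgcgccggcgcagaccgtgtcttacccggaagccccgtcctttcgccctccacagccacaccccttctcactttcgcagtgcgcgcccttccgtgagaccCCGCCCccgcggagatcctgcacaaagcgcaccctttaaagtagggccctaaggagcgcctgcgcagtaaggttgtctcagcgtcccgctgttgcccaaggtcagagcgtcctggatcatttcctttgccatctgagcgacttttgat
Dhcr7, last start, chr7:143829964-143830213, plus strand: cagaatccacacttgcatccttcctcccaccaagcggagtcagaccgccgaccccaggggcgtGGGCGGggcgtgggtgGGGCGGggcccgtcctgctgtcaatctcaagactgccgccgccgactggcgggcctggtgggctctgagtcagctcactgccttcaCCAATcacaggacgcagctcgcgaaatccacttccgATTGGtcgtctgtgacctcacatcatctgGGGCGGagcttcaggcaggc
Srebf2, chr15:82147019-82147268, plus strand: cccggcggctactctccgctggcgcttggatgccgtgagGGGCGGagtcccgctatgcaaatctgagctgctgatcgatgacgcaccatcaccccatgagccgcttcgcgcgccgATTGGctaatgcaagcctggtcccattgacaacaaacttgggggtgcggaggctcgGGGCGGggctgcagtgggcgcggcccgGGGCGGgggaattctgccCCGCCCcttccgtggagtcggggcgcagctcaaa
The Lss and Srebf2 windows each held 1 CCAAT match, 62 and 135 bases before the start, and the window of the last Dhcr7 start held 2, at 85 and 49 bases before it. Sp1 boxes numbered 2 in Lss, 1 and 3 in the first and last Dhcr7 windows, and 5 in Srebf2, of which 1 lay after the start and is not shown. The middle Dhcr7 window and that of Acaca held none of the 3 motifs.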

How the data were processed

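RNA of 12 sorted samples was labelled by the Eberwine method from 300 ng and hybridised to single-colour Illumina arrays. The submitters' processing notes name GenomeStudio without a version. For 25697 probes the authors deposited, per the file headers, unnormalized linear intensity values, each with its detection p-value. Their second deposited table holds processed intensity values on a linear scale with a floor of 21.53, whose normalization is not stated; on the log2 scale it correlated with the values used here at 0.991 or more, and it served as an alternative.

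In R 4.3.3 with limma 3.58.1, neqc corrected the background with an offset of 16 and quantile-normalized all arrays. The filter kept probes with a detection p under 0.01 on 2 or more arrays (11224, of which 10438 had a gene symbol from the platform annotation), and the brightest probe stood for a gene (7894 genes). Quantile normalization gives both fractions a common distribution although fewer probes were detected in the microenvironment. Symbols were updated through RefSeq (12090 of 12096 named probes matched, 13601 probes were unnamed here). A mean per group was fitted to the 12 arrays with lmFit and eBayes, with Benjamini-Hochberg adjustment over all genes at 0.05, and every adjusted p comes from limma. The number of arrays limits the precision. Pools were separate groups of 3 mice, and arrays of the same letter came from the same pool, so a pool block was run as an alternative. The deviations of such pairs from their group means correlated at 0.393 for B2 and B3, 0.113, 0.107, -0.072 and 0.562 for A to D. In all, 23 alternatives were run, 12 of them leaving out an array.

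The genes, lists, named genes and alternatives were chosen with earlier results of these data known. Named were all chosen genes, a fixed set of pathway genes (Srebf1, Scap, Insig1, Hmgcs1, Cyp51, Acly and Scd2 where measured), per list the 3 passing genes with the largest difference each way between fractions and the 2 with the smallest p between lines, and the genes with the most similar profiles. The steps were tested on simulated data.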

Additional observations from a re-analysis of the deposited data

Results flagged for a closer look

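Sqle on tumor_F4 A, at a log2 signal of 9.32, stood far from the other F4 tumor arrays, which gave 10.87 to 11.04. The gap exceeded Dixon's 95% critical value for 4 samples (0.829). The test was made in 14 groups of 4 arrays, and chance gives about 1 such result in 20. On the same array the marker index was -0.73, against 2.46 to 4.53 on the other tumor arrays, and its part in the Sqle value was not tested.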

How the results depend on the processing

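No count of calls between F4 and F0 or in the interaction changed among the 7 genes under any of the 23 alternatives: it was 0 throughout. Between fractions, 0 genes were called higher in F0 and 2 in F4. These counts became 7 and 7 with median scaling, and 1 and 5 with the replicate block (the pool of mice). Without the 3 arrays of intermediate marker index the F4 count was 5. The F0 count of that run, printed in the Results, is not compared here because F0 kept 1 microenvironment array. In F4 the count became 7 with array weights, which called 46.5% of all genes higher, and 0 with the marker index as a covariate. Leaving out single F4 arrays gave 0 to 1 in F0 and 0 to 5 in F4. The 1 in F0 came without tumor_F4 A, where 2.74% of all genes were called higher. In F4 the 5 came without microenvironment_F4 D, where 24.8% of all genes were, and 0 without tumor_F4 B, C or D, where 0.305% to 0.384% were. Over all genes in F4, 1053 higher and 886 lower became 24 and 54 without tumor_F4 D and 1 and 4 with the marker index. In F0, 21 higher and 51 lower became 130 and 373 with the block and 5381 and 195 with median scaling, which moved the median of all genes to 1.68 (96.5% of calls higher against 29.2%). The cause was not tested.

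Single differences that changed sign, none of them past the threshold except Lbr in the main model, were these. Median scaling gave -0.29 for Scd1 between lines in the tumor fraction, where the median of all genes was -0.26, 0.048 for Acaca and 0.058 for Srebf2 in the microenvironment, where it was 0.14, and 0.51 for Lbr between F4 fractions. Array weights gave -0.14 for Scd1 and 0.038 for Lss in the tumor fraction and -0.049 for Scap between F4 fractions. The deposited processed values gave -0.23 for Lipa in the microenvironment and -0.064 for Scap. Without the 3 arrays, Scd1 was at -0.12, Lss at 0.12 and Dhcr7 at 0.029 in the tumor fraction, Acaca and Sqle at 0.29, Dhcr7 at 0.11 and Fdps at 0.24 in the microenvironment, and the Srebf2 interaction at 0.047. The marker index gave 0.17 for Lss, 0.064 for Dhcr7 and 0.029 for Fdps in the tumor fraction, 0.17 for Sqle and 0.13 for Dhcr7 in the microenvironment, -0.25 for Acaca, -0.39 for Scd1, -0.22 for Sqle and -0.050 for Lss between F0 fractions, and -0.40 for Acaca, -0.41 for Sqle, -0.16 for Srebf1, -0.25 for Scap, -0.53 for Insig1, -0.16 for Hmgcs1, -0.10 for Cyp51, -0.11 for Acly and -0.47 for Scd2 between F4 fractions.

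Leaving out single arrays gave, for F4 minus F0 in the tumor fraction, -0.25 to 0.26 for Scd1, -0.21 to 0.15 for Lss, -0.38 to 0.029 for Dhcr7 and -0.54 to 0.076 for Fdps. In the microenvironment it gave -0.67 to 0.33 for Acaca, -0.50 to 0.27 for Dhcr7, -1.07 to 0.51 for Fdps, -1.09 to 0.62 for Sqle, -1.17 to 0.15 for Srebf1 and -0.50 to 0.11 for Srebf2. Between fractions it gave -0.16 to 0.83 for Acaca and -0.41 to 0.97 for Scd1 in F0 and -0.12 to 0.17 for Scap in F4. The other replicate block results for the named genes kept their side of the threshold, apart from those given with them. Normalization within each fraction and the fit on only 2 groups were run where they could give a value. Dim signals limit Dhcr7, Srebf1, Mcat, Rad51c and Catsperd, which were not detected in the microenvironment.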
